A study of Mus musculus with 11 samples.

Results

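IFT-A and cytoplasmic dynein-2 carry material from the tip of a cilium or flagellum back to its base, and the 10 genes followed here encode the 6 subunits of IFT-A and 4 heavy, intermediate and light intermediate chains of dynein-2. They are the 6 IFT-A genes Ift122, Ift140, Wdr19, Wdr35, Ttc21b and Ift43 and the 4 dynein-2 genes Dync2h1, Dync2li1, Wdr60 and Wdr34. They were chosen by name, from the gene symbols that the GENCODE vM21 annotation gives to the Ensembl identifiers. No measured value was part of the rule, but earlier results of these data were known when the list was chosen. All 10 were found among the 23074 genes counted, and all 10 passed the filter on low counts.

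Testis RNA-Seq counts were available for 5 wild type (WT) mice, numbered 1 to 5, and 6 Rfx2-/- mice, numbered 6 to 11, all at postnatal day 21 (P21). RFX2 is a transcription factor of the RFX family, and the comparison asks which transcripts depend on it in the juvenile testis. Every mouse was of the mixed C57BL/6, 129/Sv and FVB/N background, and the testis was taken out of its capsule before extraction. The Rfx2-/- mice lack exon 7, which encodes part of the DNA binding domain, in every cell, because the floxed allele was recombined in the germline by a Cre that is active throughout the body, so germ cells and somatic cells of the testis carry the same deletion. That Cre was driven by the ACTB promoter, and the mixed background line kept the neomycin cassette of the targeting vector. At this age the most advanced germ cells are early round spermatids, and all values come from whole testis and therefore average over every cell type in it.

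Cilia and flagella are built by intraflagellar transport, in which trains of IFT-A and IFT-B complexes travel along the axoneme. Kinesin-2 draws the trains outward, and dynein-2 draws them back. IFT122, IFT140 and WDR19 (IFT144) form the core of IFT-A, to which WDR35 (IFT121), TTC21B (IFT139) and IFT43 attach, and IFT-A also brings membrane receptors into the cilium together with tubby family proteins. DYNC2H1 is the motor heavy chain of dynein-2, DYNC2LI1 its light intermediate chain, and WDR60 and WDR34 its intermediate chains, named DYNC2I1 and DYNC2I2 in newer nomenclature. In the testis the sperm flagellum is assembled by intraflagellar transport in spermatids, and RFX factors bind the X-box, an imperfect palindrome found near the start of many ciliary genes.

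The best matches to the X-box near the start of these genes are shown because RFX2 is the factor removed. RefSeq promoters of GRCm38.p6 (250 bases before to 50 after the start) were at hand for 8 of the 10 genes, all but Ift122 and Dync2li1. Each was searched for the consensus GTTNCCATGGNAAC, which joins the arm GTTNCC to its reverse complement and reads alike on both strands. The 12 defined letters were scored for mismatches, and position 1 is the RefSeq start. The 3 closest windows of 30 bases, 5′ to 3′ on the strand of the gene and with the 14 matched bases in capitals, were those of Wdr34 (chr2:30048854-30048883, minus strand), Ift140 (chr17:25015961-25015990, plus strand) and Dync2h1 (chr9:7177022-7177051, minus strand).
Wdr34: gcgggaccGTCGCCATGGCAATgtgcgcgt
Ift140: tggggcgtGTTGTGACGGCAACctcgcgcc
Dync2h1: gtgaagcgGTCGCCATAGCGACggagcttg
The Wdr34 window had 2 mismatches and its match began at position 5, while 3.5% of 32851 promoters held a match as close. The Ift140 match began at position -117 and the Dync2h1 match at position 16, both with 3 mismatches, which 13.0% of promoters reached. Wdr19, Ift43 and Wdr60 had 4 mismatches at best, which 53.4% of promoters reached, and Wdr35 and Ttc21b had 5, which 97.0% reached. The arm GTTNCC alone, on either strand, stood in 45.3% of promoters and in 6 of the 8 here, with 2 copies each in Ift140, Ttc21b and Dync2h1 and 1 each in Wdr35, Ift43 and Wdr60. It is shown in capitals for Wdr35 (position 41, chr12:8974021-8974050, plus strand) and for the first copy in Ttc21b (position -220, chr2:66256820-66256849, minus strand), since these peripheral IFT-A genes had differences of opposite sign once WT mice 3 and 5 were left out.
Wdr35: gatgcgactgggcggcggtgGTTGCCaggc
Ttc21b: cctcctcgcgccGTTTCCaggctggacctc
The Wdr35 arm lies 4 bases from the end of the sequence searched. These are matches of letters only, and a window without one says only that these letters are not in it.

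Of the 10 genes, 0 were called lower and 0 higher in Rfx2-/- testis. The limit for a call was an adjusted p of 0.01 (edgeR's quasi-likelihood test across 15745 genes, Benjamini-Hochberg), which 1.94% of the genes tested passed as lower and 0.73% as higher. At an unadjusted p under 0.05, 3 of the 10 were higher (Ift140, Ttc21b and Wdr19) and 0 lower, against 18.1% of all genes higher and 23.7% lower. The DESeq2 Wald test also called 0 of the 10, against 5.95% of its genes called higher and 4.5% lower, and limma voom 0 of the 10, against 2.33% and 4.33%. At an unadjusted p under 0.05, DESeq2 had 5 of the 10 higher and 0 lower, against 18.1% and 17.7% of its genes, and voom 3 higher and 2 lower, against 17.2% and 21.8%. The 95% intervals of all 10 genes lay inside a 2-fold fall and a 2-fold rise. The fitted log2 fold changes (Rfx2-/- minus WT) ran from -0.13 to 0.56 with a median of 0.24, beside a median of -0.05 over all genes tested. They were above 0 for 8 of the 10.

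WT mice 3 and 5 stood apart from the other 9 mice in pachytene spermatocyte markers, and nearly every value below rests in part on them. Their pachytene spermatocyte score, the mean log2 CPM of 8 marker genes (CPM are counts scaled to the library size, here adjusted by TMM), was 8.16 and 7.95. The other 3 WT mice had 9.22 to 9.52 and the 6 Rfx2-/- mice 9.35 to 9.76. The 8 pachytene markers summed to between 3953 and 9551 CPM in WT and between 8217 and 10810 CPM in Rfx2-/- testis, and 0 of the 8 were called. The sum of 9 round spermatid markers ranged from 8.74 to 404.6 CPM in WT and from 30.5 to 615.6 CPM in Rfx2-/- testis. On this sum WT 3 (15.2 CPM) and WT 5 (8.74 CPM) were close to WT 4 (24.1), Rfx2-/- 8 (30.5) and Rfx2-/- 9 (33.2). The elongating spermatid markers summed to 6.36 CPM in WT 3 and 1.64 in WT 5. They summed to 7.71 CPM in WT 4, 6.47 in Rfx2-/- 8, 6.98 in Rfx2-/- 9 and up to 408.2 in WT 1. Markers of several other cell types, but not of all, were highest in WT 3 and WT 5. The spermatogonia markers summed to 511.7 and 580.4 CPM there and to between 273.4 and 387.9 CPM in the other 9 mice. The Sertoli cell markers summed to 3152 and 3566 CPM, against 2295 to 2876 CPM, and the peritubular myoid, macrophage and endothelium markers were also highest in these mice. The Leydig cell markers, with 223.8 and 184.4 CPM in WT 3 and WT 5, were highest in WT 2 with 315.2 CPM. Early meiotic spermatocyte markers summed to 1000 and 1047 CPM in WT 3 and WT 5, within a WT range of 956.4 to 1441 CPM. The part of these cells in the results was not tested. In bulk testis RNA, fewer cells of a type and less RNA per cell cannot be told apart. WT 3 and WT 5 were the 2 lowest of the 11 mice for 9 of the 10 genes, all but Dync2h1, whereas they were the 2 lowest for 29.4% of all genes tested. Without these mice, a comparison added after seeing the data, 1 of the 10 genes was called lower (Dync2li1) and 0 higher, with 2.72% of all genes called lower and 1.06% higher. At an unadjusted p under 0.05 that fit had 3 of the 10 lower and 2 higher, against 13.0% and 12.7% of all genes, and the median log2 fold change of the 10 was -0.01. Since WT 3 and WT 5 were lowest for 9 of the 10 genes, leaving them out had to lower those 9 log2 fold changes. It also narrowed the WT spread, so the calls, p-values and intervals of that fit are a description only.

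**Figure D1:**
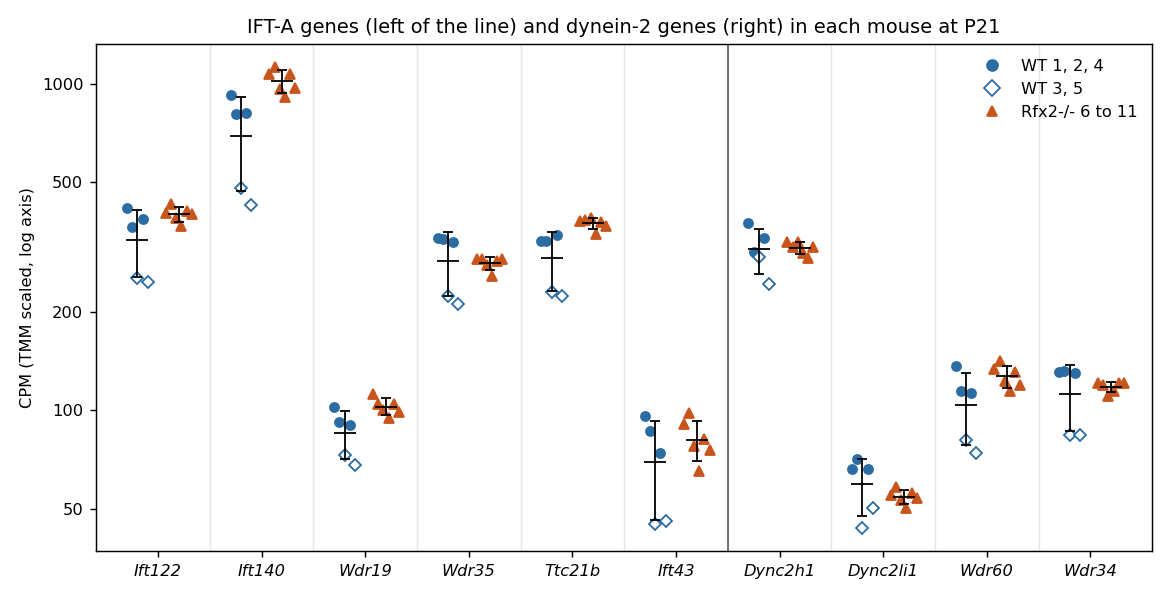
CPM (TMM scaled, log axis) of the 6 IFT-A genes and 4 dynein-2 genes in each of 11 mice, with bars for the mean and SD of each genotype. WT 3 and WT 5 (open diamonds) are the lowest 2 mice for every gene except Dync2h1, and Ttc21b is the 1 gene whose 6 Rfx2-/- mice all lie above all 5 WT mice.

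Among the IFT-A core genes, Ift140 had the highest level and the largest difference. Ift140 (ENSMUSG00000024169) lies on chromosome 17 of GRCm38 from 25016085 to 25099495. It had 925.4, 807.8, 479.7, 814.0 and 426.4 CPM in WT mice 1 to 5 and 1073, 1126, 964.1, 911.3, 1069 and 972.0 CPM in Rfx2-/- mice 6 to 11. The 4 WT mice other than WT 1 lay below every Rfx2-/- mouse, and 5 of the 6 Rfx2-/- mice lay above every WT mouse, so that the groups overlapped through WT 1 and Rfx2-/- 9. The mean was 691 ± 223 CPM (SD, n = 5) in WT and 1019 ± 82.0 CPM (SD, n = 6) in Rfx2-/- testis, a log2 fold change of 0.56 (standard error 0.20, 95% interval 0.13 to 0.99, edgeR adjusted p = 0.066), which did not pass the test. Without WT 3 and WT 5 the log2 fold change was 0.27 (95% interval 0.09 to 0.46, adjusted p = 0.069).

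Ift122 (ENSMUSG00000030323, chromosome 6 from 115853470 to 115926699), a WD repeat subunit of the core, had 415.7, 363.6, 254.2, 385.5 and 247.5 CPM in WT mice 1 to 5 and from 366.1 to 429.1 CPM, with a median of 401.1, in Rfx2-/- mice. All 6 Rfx2-/- mice lay above the WT median, but only 1 lay above WT 1. The log2 fold change was 0.26 (95% interval -0.04 to 0.56, edgeR adjusted p = 0.17), and it was 0.05 (95% interval -0.09 to 0.18) without WT 3 and WT 5.

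Wdr19 (ENSMUSG00000037890, chromosome 5 from 65199696 to 65260415), the subunit also known as IFT144, had 102.6, 91.8, 73.0, 90.2 and 67.9 CPM in WT mice and 94.9 to 112.4 CPM, with a median of 102.5, in Rfx2-/- mice. Here 3 of the 6 Rfx2-/- mice lay above every WT mouse, and 4 of the 5 WT mice lay below every Rfx2-/- mouse. The log2 fold change of Wdr19 was 0.27 (95% interval 0.05 to 0.49, edgeR adjusted p = 0.078), and 0.12 (95% interval -0.01 to 0.26) without WT 3 and WT 5.

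The peripheral IFT-A genes had differences of both signs. Ttc21b (ENSMUSG00000034848, chromosome 2 from 66184327 to 66256617), whose product attaches to the core and takes part in retrograde transport, had 331.2, 330.0, 230.9, 344.8 and 223.6 CPM in WT mice 1 to 5. Rfx2-/- mice 6 to 11 had 381.2, 382.6, 389.0, 347.0, 376.9 and 367.9 CPM. Every Rfx2-/- mouse lay above every WT mouse, with 347.0 against 344.8 CPM at the closest point. Ttc21b was the 1 gene of the 10 with this separation, and 6.5% of all genes tested showed it in the same direction and 5.2% in the other. Its mean was 292 ± 59.5 CPM (SD, n = 5) in WT and 374 ± 15.0 CPM (SD, n = 6) in Rfx2-/- testis. The log2 fold change was 0.36 (95% interval 0.09 to 0.63, edgeR adjusted p = 0.063), and without WT 3 and WT 5 it was 0.17 (95% interval 0.07 to 0.27, adjusted p = 0.047), again not called.

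Wdr35 (ENSMUSG00000066643, chromosome 12 from 8973892 to 9028847), the subunit also known as IFT121, had 338.1, 335.9, 224.2, 327.5 and 211.3 CPM in WT mice 1 to 5. In Rfx2-/- mice 6 to 11 it had 291.6, 290.9, 279.5, 257.6, 286.0 and 290.2 CPM. WT 1, 2 and 4 lay above every Rfx2-/- mouse and WT 3 and 5 below every one, so the WT mice enclosed the Rfx2-/- mice. Over all 11 mice the genotypes had 287 ± 63.9 CPM (SD, n = 5) and 283 ± 13.1 CPM (SD, n = 6), a log2 fold change of -0.02 (95% interval -0.31 to 0.26, edgeR adjusted p = 0.90). Without WT 3 and WT 5 it was -0.23 (95% interval -0.33 to -0.13, adjusted p = 0.013), which missed the limit of 0.01.

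Ift43 (ENSMUSG00000007867, chromosome 12 from 86082541 to 86162459) encodes a small subunit of the periphery. It had 96.3, 86.3, 44.7, 74.2 and 46.0 CPM in WT mice and 65.0 to 97.9 CPM, with a median of 79.6, in Rfx2-/- mice. It was the most variable of the 10 genes within both genotypes, with a coefficient of variation of 33.7% in WT and 14.3% in Rfx2-/- testis. The log2 fold change of Ift43 was 0.23 (95% interval -0.22 to 0.68, edgeR adjusted p = 0.40) and -0.06 (95% interval -0.34 to 0.22) without WT 3 and WT 5.

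Among the dynein-2 genes, the heavy chain Dync2h1 (ENSMUSG00000047193, chromosome 9 from 6928503 to 7184446) had the smallest difference between genotypes over all mice. It had 376.0, 304.6, 293.9, 336.6 and 243.7 CPM in WT mice 1 to 5 and 293.1 to 327.9 CPM, with a median of 316.6, in Rfx2-/- mice. WT 1 and WT 4 lay above every Rfx2-/- mouse and WT 5 below every one. The log2 fold change was 0.01 (95% interval -0.20 to 0.23, edgeR adjusted p = 0.92), that is, between 0.87 and 1.17 times the WT level. The X-box match of Dync2h1 printed above lies after its RefSeq start. The outermost start of the GENCODE annotation lies 7388 bp from that start.

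Dync2li1 (ENSMUSG00000024253, chromosome 17 from 84626496 to 84655588), the light intermediate chain, had the lowest log2 fold change of the 10. WT mice 1 to 5 had 66.0, 70.9, 43.6, 66.2 and 50.04 CPM, and Rfx2-/- mice 6 to 11 had 54.9, 58.3, 53.2, 50.37, 55.7 and 53.8 CPM. As for Wdr35, WT 1, 2 and 4 lay above every Rfx2-/- mouse and WT 3 and 5 below every one. Over all 11 mice the log2 fold change was -0.13 (95% interval -0.39 to 0.13, edgeR adjusted p = 0.42). Without WT 3 and WT 5 it was -0.31 (95% interval -0.42 to -0.19, adjusted p = 0.0057), the 1 call among the 10 genes in that comparison. Between 1133 and 2107 reads were counted on Dync2li1 in each mouse, which includes the lowest count of any of the 10 genes in a mouse.

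The intermediate chains Wdr60 (ENSMUSG00000042050, chromosome 12 from 116206262 to 116263022) and Wdr34 (ENSMUSG00000039715, chromosome 2 from 30031546 to 30048881) are described side by side, and the difference between them was not tested. Wdr60 had 136.9, 114.4, 81.3, 113.0 and 74.1 CPM in WT mice and 114.3 to 141.3 CPM, with a median of 126.8, in Rfx2-/- mice, all 6 of which lay above the WT median. Its log2 fold change was 0.29 (95% interval -0.03 to 0.61, edgeR adjusted p = 0.15), and 0.07 (95% interval -0.11 to 0.25) without WT 3 and WT 5. Wdr34 had 130.6, 131.7, 84.3, 129.9 and 84.2 CPM in WT mice and 110.9 to 121.3 CPM, with a median of 120.2, in Rfx2-/- mice, none of which lay above the WT median.

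WT 1, 2 and 4 thus enclosed the Rfx2-/- mice from above and WT 3 and 5 from below for Wdr34 too. Its log2 fold change was 0.07 (95% interval -0.21 to 0.36, edgeR adjusted p = 0.67) over all mice and -0.14 (95% interval -0.22 to -0.05, adjusted p = 0.048) without WT 3 and WT 5. Wdr34 is the gene whose window, printed above, comes closest to the X-box consensus.

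The estimates depended on the pachytene score. With it as a covariate in the edgeR fit, 2 of the 10 genes were called lower and 0 higher, with 4.87% of all genes called lower and 1.06% higher. At an unadjusted p under 0.05, 5 were lower and 1 higher, against 15.4% and 8.59% of all genes. Dync2li1 had a log2 fold change of -0.39 (95% interval -0.55 to -0.23, adjusted p = 0.0043) and Wdr35 of -0.33 (95% interval -0.43 to -0.23, adjusted p = 0.00059). Wdr34 followed with -0.23 (95% interval -0.35 to -0.12, adjusted p = 0.015), just outside the limit. Ift140 had 0.10 (95% interval 0.03 to 0.18, adjusted p = 0.080) in that fit, Ttc21b 0.08 (95% interval -0.04 to 0.19, adjusted p = 0.40) and Wdr19 0.03 (95% interval -0.06 to 0.12, adjusted p = 0.72).

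The plot of level against score shows the pattern mouse by mouse. For every gene except Dync2h1, WT 3 and WT 5 were lowest on both axes. For Ift140, Rfx2-/- mice 8 and 11, with scores of 9.43 and 9.44, lay above WT 1, with a score of 9.52. For Wdr35, Dync2li1 and Wdr34, WT 1, 2 and 4 lay above Rfx2-/- mice of similar score. The score was computed from the same libraries and is not a count of cells, and the part of testis maturity in these differences was not tested.

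**Figure D2:**
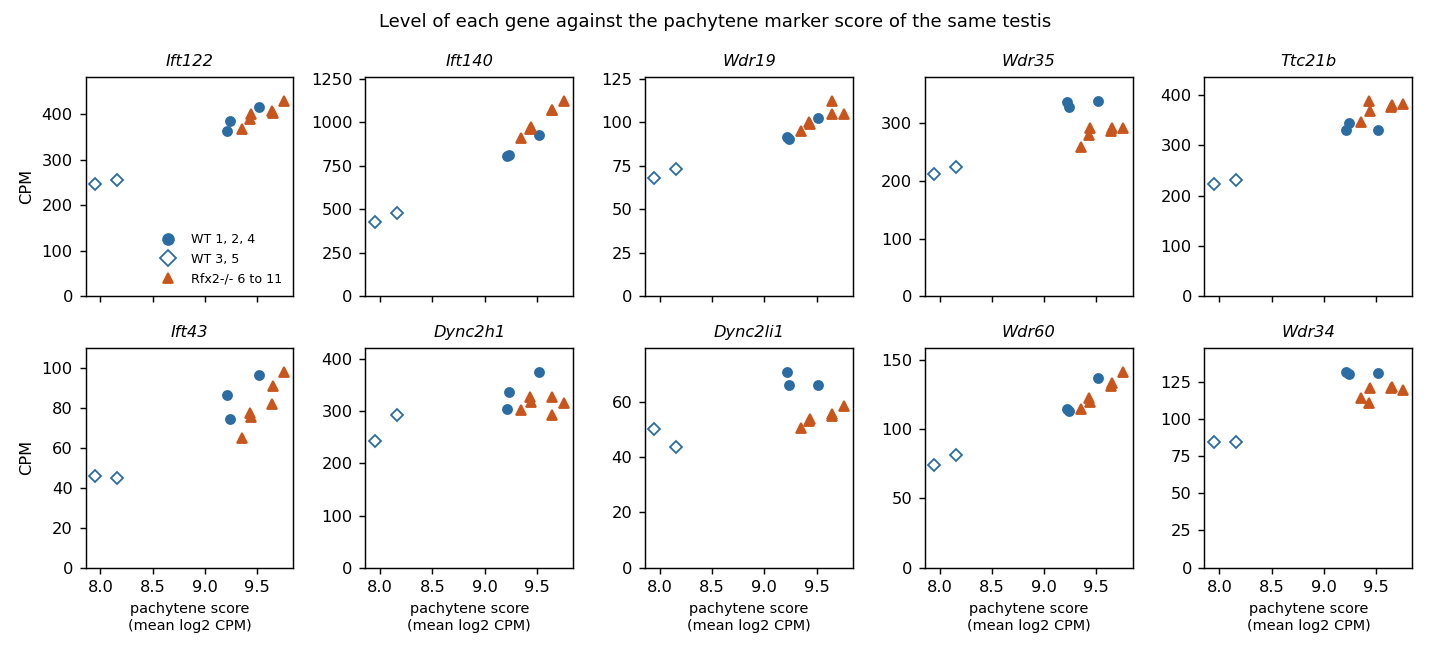
CPM of each gene (vertical axis, from 0) against the pachytene marker score of the same testis (mean log2 CPM of 8 markers). WT 3 and WT 5 have scores of 8.16 and 7.95 and the other 9 mice 9.22 to 9.76, and in the panels of Wdr35, Dync2li1 and Wdr34 the WT mice 1, 2 and 4 lie above all 6 Rfx2-/- mice.

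**Figure D3:**
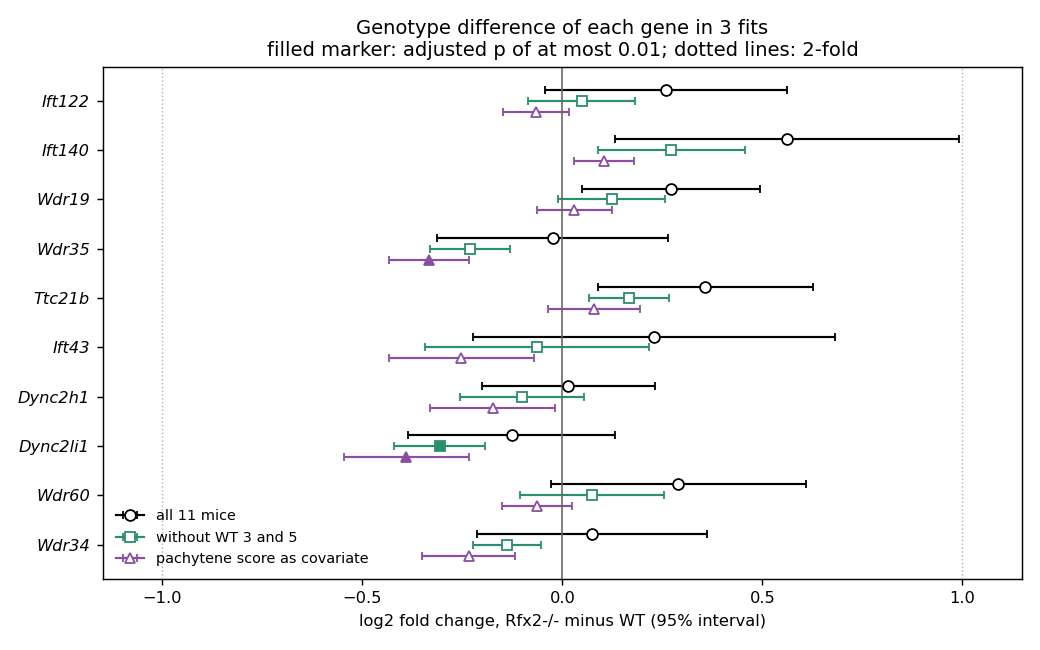
Log2 fold change (Rfx2-/- minus WT) of each gene with its 95% interval in 3 edgeR fits: all 11 mice, without WT 3 and 5, and with the pachytene score as a covariate. Filled markers are calls at an adjusted p of at most 0.01, which are Dync2li1 in the second fit and Wdr35 and Dync2li1 in the third, and every interval lies between the dotted lines at a 2-fold change.

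Levels can be compared between genes only per length, for which CPM were divided by the merged exon length of the protein coding transcripts in kilobases (RPKM). On this scale the WT order was Ift140 with 89.7 ± 28.9, Ift43 with 81.3 ± 27.3, Ift122 with 77.5 ± 18.0, Ttc21b with 65.3 ± 13.3, Wdr35 with 63.9 ± 14.2, Wdr34 with 61.8 ± 14.04, Dync2li1 with 43.8 ± 8.72, Wdr60 with 27.9 ± 6.96, Dync2h1 with 21.5 ± 3.41 and Wdr19 with 13.5 ± 2.28 RPKM (SD, n = 5 each). Ift140 ranked at percentile 96.3 of all genes tested in WT, and Wdr19 at percentile 64.2. The ranges of neighbours in this order overlapped in WT for every pair but the last, Dync2h1 and Wdr19.

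Within single mice several steps of the order held even where the ranges overlapped. Ift140 was above Ift43 in 11 of 11 mice and Ift122 above Ttc21b in 11 of 11, but Ift43 was above Ift122 in only 6 of 11. Wdr35 was above Wdr34 in all 5 WT mice and in 1 of the 6 Rfx2-/- mice, where Wdr34 had 65.0 ± 2.41 and Wdr35 62.8 ± 2.90 RPKM (SD, n = 6). The step from lowest to highest gene was 6.63-fold in WT and 8.10-fold in Rfx2-/- testis.

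As a share of the summed RPKM of the 6 IFT-A genes in the same mouse, Ift140 made up 24.3, 23.1, 21.7, 23.7 and 20.2% in WT mice 1 to 5. In Rfx2-/- mice 6 to 11 it made up 27.5, 27.7, 26.6, 27.6, 28.1 and 26.9%. The genotypes did not overlap. Wdr35 was the reverse case, with 15.2, 16.5, 17.4, 16.3 and 17.1% in WT and 12.8, 12.3, 13.2, 13.3, 12.9 and 13.7% in Rfx2-/- mice, again without overlap. Ift122, Wdr19, Ttc21b and Ift43 overlapped between genotypes on this scale. Measured against the same IFT-A sum, 3.1% of all genes tested had every Rfx2-/- mouse above every WT mouse and 6.83% had every one below. The shares in a mouse add up to the whole, so a larger share of any gene leaves less for the others. No test was made on these shares.

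The ratio of Ift140 to Wdr35 RPKM put both together, with 1.60, 1.41, 1.25, 1.45 and 1.18 in WT mice 1 to 5 and 1.96 to 2.26 in Rfx2-/- mice. With the Ift140 share higher and the Wdr35 share lower in every Rfx2-/- mouse, this ratio had to separate the genotypes. It restates the shares and adds no separate evidence. The mean ratio was 1.38 ± 0.17 (SD, n = 5) in WT and 2.11 ± 0.11 (SD, n = 6) in Rfx2-/- testis. WT 3 and WT 5, with ratios of 1.25 and 1.18, lay farther from the Rfx2-/- mice than the other WT mice did, so leaving them out narrows the gap between the means but leaves the genotypes apart. Of all genes tested, 11.6% had a ratio to Wdr35 that was higher in every Rfx2-/- mouse than in every WT mouse.

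Within dynein-2, Dync2li1 made up 26.6, 29.6, 26.7, 28.1 and 30.8% of the summed RPKM of the 4 genes in WT mice and 24.4, 25.5, 25.2, 24.5, 25.2 and 24.7% in Rfx2-/- mice. The genotypes did not overlap, as for 3.31% of all genes set against the dynein-2 sum in that direction. Wdr60 made up 16.6 to 20.05% in WT and 20.06 to 22.5% in Rfx2-/- mice, which also did not overlap but touched at WT 1 and Rfx2-/- 11, and 10.2% of all genes did the same. Dync2h1 and Wdr34 overlapped. The summed RPKM of the 4 genes was 155 ± 31.8 (SD, n = 5) in WT and 161 ± 6.31 (SD, n = 6) in Rfx2-/- testis, and that of the IFT-A genes was 391 ± 103 and 483 ± 34.2.

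**Figure D4:**
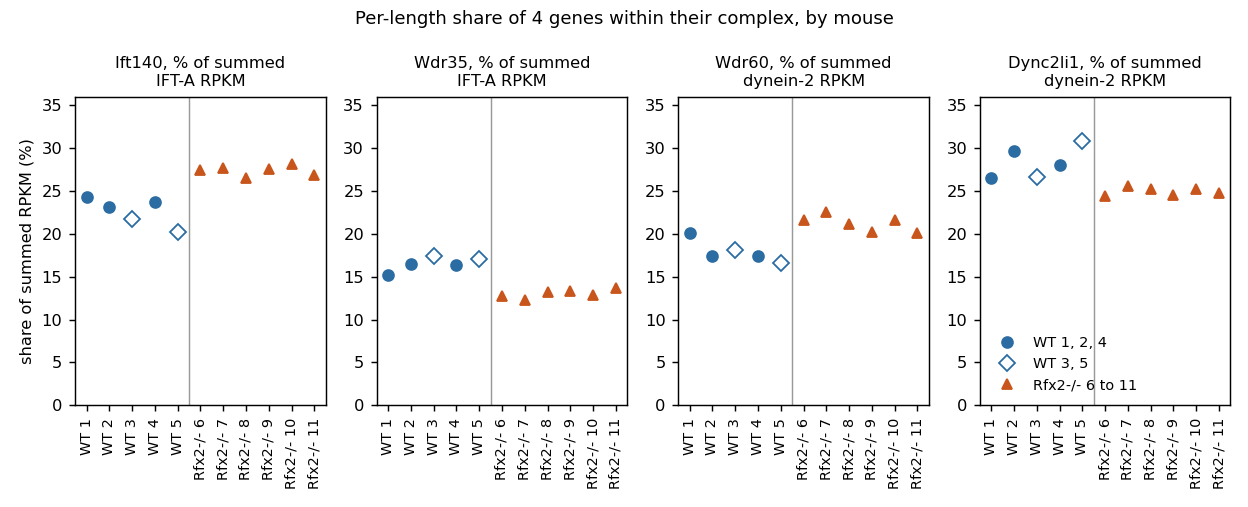
Share (%, axis from 0) of Ift140 and Wdr35 in the summed RPKM of the 6 IFT-A genes, and of Wdr60 and Dync2li1 in that of the 4 dynein-2 genes, in each of 11 mice. Ift140 and Wdr60 lie higher and Wdr35 and Dync2li1 lower in all 6 Rfx2-/- mice than in all 5 WT mice, with Wdr60 separated by 20.05 against 20.06%.

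All 10 genes varied more among WT than among Rfx2-/- mice, with a median coefficient of variation of 22.5% against 5.06%. Over the 5233 genes with more than 50 CPM the medians were 15.1% and 6.80%. The 10 genes also moved together over the 11 mice, with Pearson's r of log2 CPM between 0.43 (Wdr19 with Dync2li1) and 0.98 (Ift122 with Wdr60) and a median of 0.83 over the 45 pairs. These correlations pool mice of both genotypes and of pachytene scores from 7.95 to 9.76, and are given as a description.

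The single gene most like Ift140 over the 11 mice was Hdgfl1 (r = 0.999), that most like Ttc21b was Pdha2 (r = 0.999), which encodes the testis form of a pyruvate dehydrogenase subunit made in spermatocytes, and that most like Wdr60 was 4930451G09Rik (r = 0.997). These were taken from 11778 genes with a mean of at least 5 CPM, for the 3 genes with the largest absolute log2 fold change. As many as 2449, 2289 and 2216 of those genes had r over 0.9 with Ift140, Ttc21b and Wdr60, so that the likeness singles out no gene.

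The genes that share a start region with these 10 were read as well, since a divergent pair can share promoter sequence. Ift122 starts 99 bp from the DNA repair gene Mbd4, Ift140 starts 297 bp from Cramp1l, and Dync2h1, by its outermost GENCODE start, 74 bp from Dcun1d5, a gene of the neddylation pathway. Mbd4 had 12.6 ± 1.84 CPM (SD, n = 5) in WT and 10.2 ± 0.97 CPM (SD, n = 6) in Rfx2-/- testis. Its log2 fold change was -0.31 (edgeR adjusted p = 0.071). Cramp1l had a log2 fold change of 0.15 (adjusted p = 0.11) and Dcun1d5 of 0.18 (adjusted p = 0.14), and none of the 3 was called.

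IFT-B, the other train complex, was read beside these genes, and the difference between the lists was not tested. Of 18 IFT-B genes, all tested, 2 were called higher and 0 lower, against 0.73% and 1.94% of all genes tested. Their median log2 fold change was 0.18 over all mice, -0.17 with the pachytene score and -0.09 without WT 3 and WT 5. At an unadjusted p under 0.05, 7 were higher and 2 lower, against 18.1% and 23.7% of all genes. The DESeq2 Wald test and limma voom each called 3 higher, the third being Ift46, and voom called 1 lower, Ift27. DESeq2 called 5.95% of all its genes higher and 4.5% lower, and voom 2.33% and 4.33%. In the edgeR fit Ift46 had a log2 fold change of 0.63 (adjusted p = 0.027) with every Rfx2-/- mouse above every WT mouse, and Ift27 had -0.49 (adjusted p = 0.057). The 2 genes called by edgeR, Ift74 and Ift81, encode partners that bind each other and together bind tubulin. Ift74 (ENSMUSG00000028576) had 208.1, 199.2, 130.1, 217.2 and 127.4 CPM in WT mice 1 to 5 and 330.3 to 425.6 CPM, with a median of 385.0, in Rfx2-/- mice. Ift81 (ENSMUSG00000029469) had 112.9, 96.7, 67.9, 103.0 and 69.4 CPM in WT mice and 154.0 to 217.3 CPM, with a median of 174.5, in Rfx2-/- mice. Both were above every WT mouse in all 6 Rfx2-/- mice, with log2 fold changes of 1.10 (standard error 0.16, edgeR adjusted p = 0.0018) and 1.01 (standard error 0.15, adjusted p = 0.0026). Such a separation in this direction was found in 6.5% of all genes tested. Among the paralogues Ttc30a1, Ttc30a2 and Ttc30b, which share sequence, the split of reads is uncertain.

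Of 29 partner genes, 28 passed the filter, and edgeR called 0. Their median log2 fold change was 0.16 over all mice, -0.20 with the pachytene score and -0.13 without WT 3 and WT 5. They comprise dynein light chains, kinesin-2 subunits, the tubby family, the BBSome (a coat that works with IFT trains) with associated genes, and Ttc21a. Ttc21a is the paralogue of Ttc21b. At an unadjusted p under 0.05, 6 were higher and 8 lower, beside 18.1% and 23.7% of all genes. The DESeq2 Wald test called 2 higher (Dynll1 and Kif3a) and 1 lower (Ttc8), and limma voom called 0 higher and 3 lower (Bbs2, Bbs7 and Ttc8). Among all their genes, DESeq2 called 5.95% higher and 4.5% lower, and voom 2.33% and 4.33%. The 4 kinesin-2 genes had log2 fold changes between 0.26 and 1.16 over all mice, the highest being Kif17 with a 95% interval of -0.85 to 3.16, and with the pachytene score 3 of the 4 were below 0. The 10 genes listed with the BBSome had a median of -0.07, and Arl6 and Lztfl1 among them do not encode subunits of the coat. Of the 10, 3 were lower and 2 higher (Bbs4 and Arl6) at an unadjusted p under 0.05, again near the share of all genes. The cytoplasmic light chains Dynlt1a, Dynlt1b, Dynlt1c and Dynlt1f are near-identical copies, and their counts are uncertain.

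**Figure D5:**
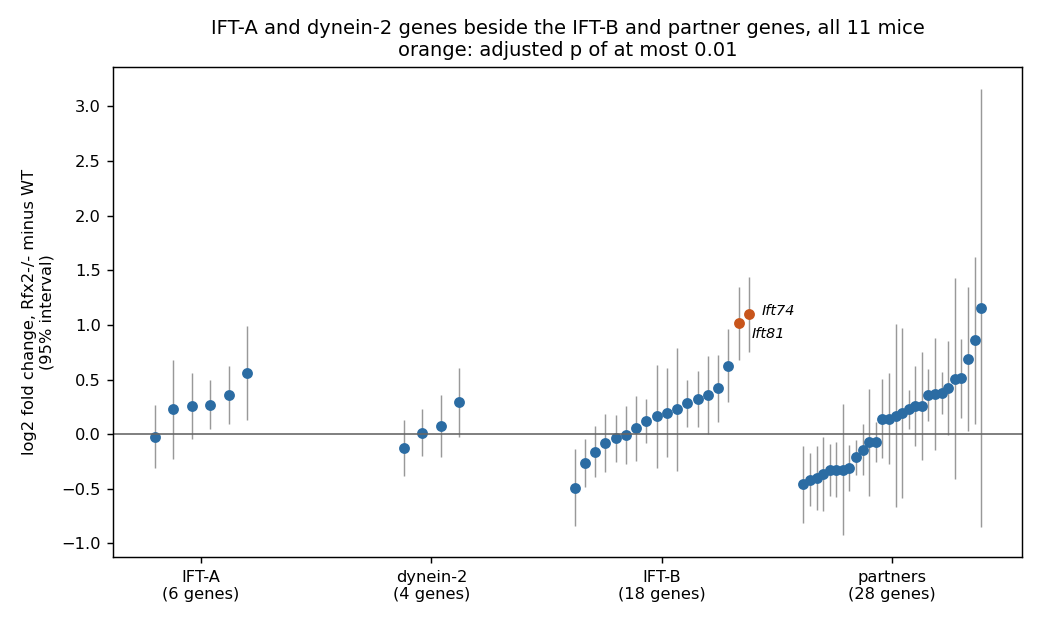
Log2 fold change (Rfx2-/- minus WT) with 95% interval, sorted within each list, for 6 IFT-A, 4 dynein-2, 18 IFT-B and 28 partner genes over all 11 mice. Ift74 and Ift81 are the 2 genes past an adjusted p of 0.01, at log2 fold changes of 1.10 and 1.01, and the 10 IFT-A and dynein-2 genes lie between -0.13 and 0.56.

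Rfx2 itself had 326 ± 118 CPM (SD, n = 5) in WT and 304 ± 14.6 CPM (SD, n = 6) in Rfx2-/- testis, a log2 fold change of -0.10 (edgeR adjusted p = 0.71). The count covers all exons of the gene and does not show whether exon 7 is absent. Total counts were between 22232097 and 29769483 per mouse, and each of the 10 genes held between 1133 and 27262 reads in each mouse. Of 4 markers of multiciliated cells, which line the efferent ducts, 2 were under 1 CPM in every mouse (Mcidas and Tmem212). The 4 summed to between 7.67 and 83.6 CPM in WT and between 17.2 and 78.4 CPM in Rfx2-/- testis, mostly from the other 2. This sum was highest in WT 1 and Rfx2-/- 7, which also had the highest round spermatid marker sums, 404.6 and 615.6 CPM. It is therefore no measure of efferent duct tissue alone. The part of multiciliated cells in the levels of these ciliary genes was not tested.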

How the data were processed

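RNA-Seq counts of P21 testis from 5 WT and 6 Rfx2-/- mice were analysed, and groups were taken from the sample titles. The deposited table holds raw counts for each of 23074 genes and 11 mice, with no normalization by the authors, and all values were whole numbers. According to the submitters' processing notes CASAVA 1.8.2, STAR 2.4 and featureCounts 1.4.6 were used with GRCm38. Reads with several locations were discarded by the authors, and reads on merged exons of the coding isoforms of a gene were counted. Their supplementary text describes the alignment in different ways in different paragraphs. The authors' methods say that littermates of matched age were taken where possible, but not which mice shared a litter or a processing day. The p-values set the genotype difference against the spread between these mice. The mice were treated as independent, which could not be checked.

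Counts were filtered with filterByExpr, scaled by TMM and compared with glmQLFit and glmQLFTest of edgeR 4.0.16 in R 4.3.3, with genotype as the only term. Genes were called at any fold change, with an adjusted p (Benjamini-Hochberg) of no more than 0.01. The method was tested on simulated data. The alternatives were DESeq2 size factors, unscaled library sizes, DESeq2 1.42.0 with its Wald test, voom of limma 3.58.1 with sample weights, a robust prior, 2 other filters (at least 1 count in all, or a mean count of at least 50), other thresholds, round spermatid or pachytene marker scores as a covariate, each mouse left out in turn and, chosen after seeing the data, WT mice 3 and 5 left out together. Log2 CPM for scores and correlations used a prior count of 2. Positions, lengths and symbols came from the GENCODE vM21 annotation of GRCm38, which gave a symbol to 22293 genes, and lengths may differ from those of the annotation the authors counted on. Promoter sequences came from RefSeq (GRCm38.p6), with the motif search in Python 3.11.15. Floors and counting error play little part at 1133 reads or more, and the number of mice limits the precision.

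Named are all 10 genes, the IFT-B and partner genes called, for the 3 genes with the largest absolute log2 fold change the gene with the highest Pearson's r, coding genes with a divergent start within 1000 bp, Rfx2, and markers near 0. Kif17 and the genes called by another tool alone were named after their values were seen. The 10 genes and the other lists were chosen with earlier results of these data known.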

Additional observations from a re-analysis of the deposited data

Results flagged for a closer look

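Wdr35 was flagged in 1 mouse. Rfx2-/- mouse 9 had 257.6 CPM, and the other 5 Rfx2-/- mice had 279.5 to 291.6 CPM, so that its gap to the nearest mouse was large for the range of the group by Dixon's criterion. Of 20 groups of values examined, 10 genes in 2 genotypes, 1 was flagged, and chance flags about 1 in 20. Without this mouse the log2 fold change of Wdr35 was 0.01 (edgeR adjusted p = 0.95), and the WT mice still lay on both sides of the remaining Rfx2-/- mice.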

How the results depend on the processing

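The number of IFT-A and dynein-2 genes called stayed at 0 in both directions in every fit except 2. It was 2 lower with the pachytene score as a covariate and 1 lower without WT 3 and 5, where Dync2li1 was called in both and Wdr35 in the first. Both fits turn on WT 3 and WT 5, so they are not separate evidence. The 3 genes at an unadjusted p under 0.05 (Ift140, Ttc21b and Wdr19) kept a log2 fold change above 0 in every fit but lost most of its size with the pachytene score, where they had 0.104, 0.0790 and 0.0296. With each mouse left out in turn the calls of the 10 genes stayed at 0, the IFT-B genes at 2 higher and 0 lower, and the partner genes at 0.

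The other genes except Dync2li1 changed sign in at least 1 fit. With the pachytene score, Ift122 had a log2 fold change of -0.0660, Ift43 -0.254, Dync2h1 -0.174, Wdr60 -0.0632 and Wdr34 -0.235. Without WT 3 and 5, Ift43 had -0.0642, Dync2h1 -0.102 and Wdr34 -0.139. With total counts, Dync2h1 had -0.137 and Wdr34 -0.0681, a setting that moved the median of all genes from -0.05 to -0.22. With voom they had -0.0180 and -0.0839, and with the round spermatid score -0.0451 and -0.0172. Wdr35 had 0.0031 with DESeq2 size factors and 0.0060 with the DESeq2 Wald test. With single mice left out Wdr35 ranged from -0.103 to 0.0410, Dync2h1 from -0.0485 to 0.0915 and Wdr34 from -0.0023 to 0.138. The cause was not tested.

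IFT-B genes called lower numbered 1 with total counts, 1 with voom, 5 with the pachytene score and 2 without WT 3 and 5, of 18 tested. Partner genes called lower numbered 3 with total counts, 1 with the DESeq2 Wald test, 3 with voom, 1 with the round spermatid score, 6 with the pachytene score, 1 with the adjusted p limit at 0.05, 2 with an unadjusted p limit of 0.01 and 5 without WT 3 and 5, of 28 tested (29 with DESeq2). Of all genes tested, 2.76, 4.5, 4.33, 4.14, 4.87, 8.78, 10.2 and 2.72% were called lower in these 8 fits. Partner genes called higher numbered 2 with the DESeq2 Wald test, 2 with the adjusted p limit at 0.05 and 2 with the unadjusted limit of 0.01, where 5.95, 6.15 and 7.49% of all genes were. No paired analysis was possible because WT mice are numbered 1 to 5 and Rfx2-/- mice 6 to 11, so that no number is shared.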
